A study of Rattus norvegicus with 6 samples.

Results

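The solute carriers are the largest superfamily of membrane transporters, and 28 of their genes were examined in rat cortical astrocytes grown as a tissue-engineered rostral migratory stream (TE-RMS) or as a planar culture. RNA was sequenced from 6 libraries, 3 TE-RMS and 3 planar, paired in 3 runs (July, September and October), so that each run gave 1 TE-RMS and 1 planar library. Cells of every library came from the cortex of Sprague-Dawley pups aged 0 to 1 days and were used at passage 4 in the same serum-free medium, on collagen, for 4 days. TE-RMS astrocytes were seeded into agarose microchannels lined with collagen, and planar astrocytes were plated on a collagen layer in wells. Only fully bundled TE-RMSs were taken, and they were kept in a preservative and pooled into 1 sample per run. Within a run, TE-RMSs were made on 3 sequential days with 1 flask for each day, and planar astrocytes were plated on the last of these days. Flask, fabrication day, bundle selection, preservation, pooling and culture format therefore changed together and cannot be told apart. The 28 genes are those whose identifier is paired, in the part of the study's differential expression table that could be read, with a name starting with Slc and a number or with Slco. That part holds 1517 of the 1518 genes with the smallest p-values between TE-RMS and planar astrocytes, so the members were selected on the same contrast that is described below, and their fold changes are given as a description with no test. Of the 23940 genes in the count table, 32 were paired with a solute carrier name, and Slc40a1, Slc7a11, Slc1a2 and Slc1a3 were set aside. Solute carriers outside the part read were not analysed here.

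Solute carriers move ions, metals, nutrients and metabolites across the plasma membrane and the membranes of organelles, as uniporters, cotransporters or exchangers. Astrocytes use them to take up glucose and amino acids, to release lactate, to clear transmitters and to hold the ion and zinc content of the extracellular space. Zinc is handled by a pair of families that work in opposite directions: SLC39 proteins (ZIP) bring zinc into the cytosol, and SLC30 proteins (ZnT) carry it out of the cytosol, across the plasma membrane or into organelles.

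The planar libraries held 70682593, 70478784 and 56483332 counts in July, September and October, and the TE-RMS libraries held 54601354, 77277336 and 64537115. The lowest count of any member in any library was 57. Values are given as CPM, the counts scaled to a common library total after TMM normalization, in the order July, September and October. Of 14 astrocyte markers 5 could be paired by name (Apoe, Gja1, Slc1a2, Slc1a3 and Fgfr3), and all but Fgfr3 were higher in TE-RMS astrocytes. Their summed level was 2399, 1737 and 2957 CPM in planar and 8055, 5106 and 9447 CPM in TE-RMS astrocytes, with Apoe the most abundant. Of 7 fibroblast and mural markers 4 could be paired (Acta2, Col1a1, Col1a2 and Col3a1), and all 4 were lower in TE-RMS astrocytes. Their sum was 849.8, 438.8 and 701.3 CPM in planar and 181.1, 146 and 228.9 CPM in TE-RMS astrocytes, with Col1a2 the most abundant of them in every library, and none was at 0. Of 11 microglial markers 2 were paired, Cd68 being higher and Tmem119 lower in TE-RMS libraries. Cspg4, a marker of the oligodendrocyte lineage, was lower. Of 7 neuronal markers 2 were paired, Map2 and Snap25, both higher in TE-RMS libraries. September was the highest run for Snap25 and Cd68 in both conditions. Snap25 had 0.0148, 3.93 and 0.0496 CPM in planar and 0.459, 60.8 and 3.50 CPM in TE-RMS astrocytes, and Cd68 had 1.30, 15.6 and 0.778 CPM in planar and 8.70, 85.4 and 3.75 CPM in TE-RMS astrocytes. No endothelial marker was paired. Whether these markers have a part in the values of the solute carriers was not tested, and in bulk RNA fewer cells of a type and less RNA per cell cannot be told apart.

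Of the 28 members, 16 were higher (57.1%) and 12 lower in TE-RMS astrocytes. The share higher was 49.5% among the 1517 genes read and 44.4% among all tested genes. The log2 fold changes (TE-RMS over planar, from edgeR's quasi-likelihood fit with the run as a block) ran from -2.14 for Slc4a3 to 3.01 for Slco1c1. Their median was 0.94, against -0.12 over all 16331 tested genes and -0.77 over the 1517 genes read. With the selected genes on both sides of 0, the median follows the share that is higher, so the medians do not measure a common shift. The median size without regard to direction was 1.36, against 0.66 over all tested genes and 1.36 over the 1517 genes from which the members come. Since small p-values chose the members, all 28 passed an adjusted p of 0.05 in the edgeR fit, beside 18.6% of all tested genes. Each of the 28 kept its direction through all 3 runs, which held for 49.2% of all tested genes and for 1515 of the 1517 genes read. In 24 members the planar and TE-RMS libraries did not overlap, beside 29.3% of all tested genes and 1365 of the 1517 genes read. The exceptions were Slc7a5, Slc6a6, Slc2a1 and Slc25a18, which are described with the differences between runs. At the end of the selection, Slc2a1 was the last member at rank 1417 of the paired DESeq2 test, with a log2 fold change of 0.85. The first gene past the part read, at rank 1519, has no paired name (ENSRNOG00000015075) and a log2 fold change of 1.22.

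**Figure D1:**
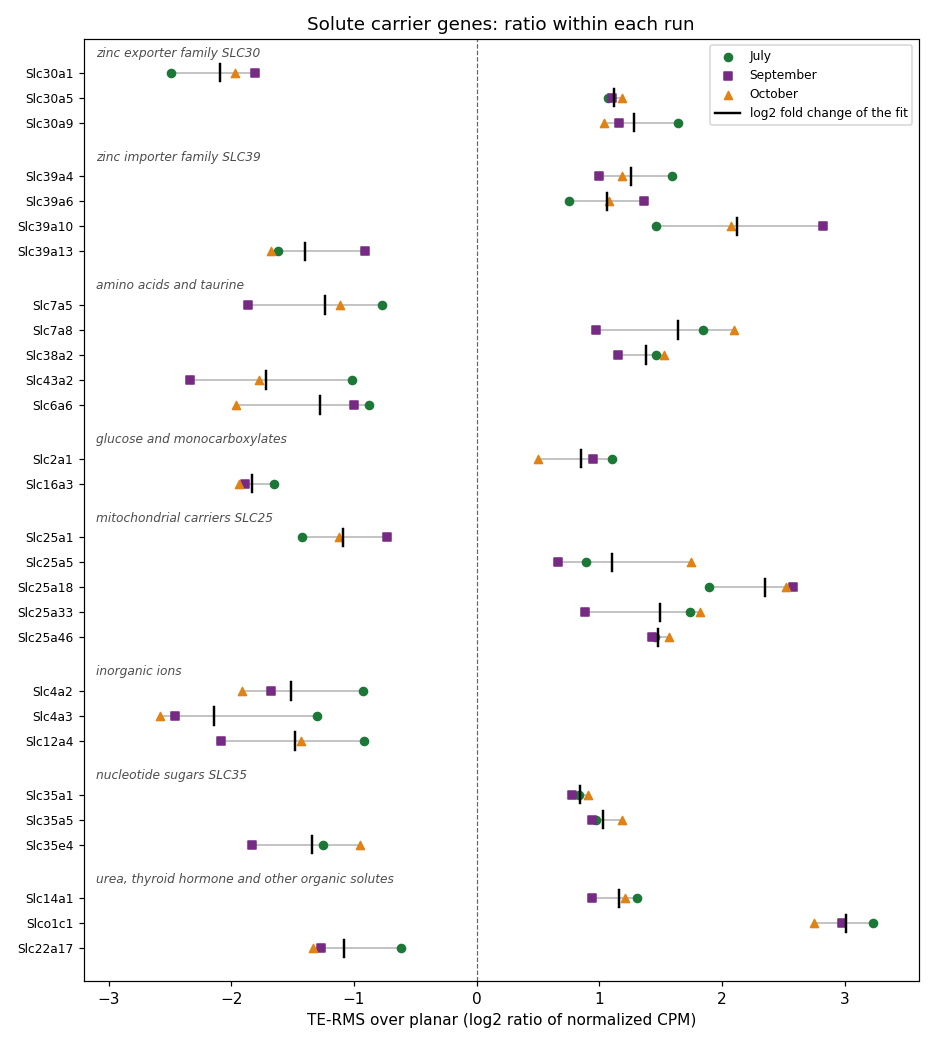
TE-RMS over planar log2 ratio of normalized CPM within the July, September and October runs for the 28 solute carrier genes, grouped by substrate class. Coloured symbols are runs, the grey line spans them, and the black bar is the fitted log2 fold change. No member crosses 0, all 3 ion transporters lie left of it, and the other classes have members on both sides.

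Among the zinc importers, 3 of 4 members were higher and 1 was lower in TE-RMS astrocytes. Slc39a10 (ENSRNOG00000011677, chromosome 9 of mRatBN7.2 from 54876141 to 54960325), a plasma membrane importer, had 45.4, 35.6 and 36.5 CPM in planar and 125.1, 252.2 and 153.9 CPM in TE-RMS astrocytes. Every TE-RMS library was above every planar one, and the September TE-RMS library was the highest of all. The planar mean was 39.2 ± 5.44 CPM and the TE-RMS mean 177 ± 66.6 CPM (SD, n = 3), a 4.35-fold difference (log2 fold change 2.12 ± 0.24, SE). Without the September run the log2 fold change was 1.77. Slc39a6, a close relative of Slc39a10 that can form a complex with it, had 21.9, 22.2 and 34.7 CPM in planar and 36.8, 56.8 and 73.4 CPM in TE-RMS astrocytes. Slc39a4, known for zinc uptake in the intestine, had 12.4, 13.0 and 7.03 CPM in planar and 37.4, 25.9 and 15.9 CPM in TE-RMS astrocytes. In both genes the ranges of the conditions came close, with October highest for Slc39a6 and lowest for Slc39a4 in either condition. Their log2 fold changes were 1.06 (standard error 0.19) and 1.26 (standard error 0.24).

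Slc39a13 was the zinc importer with the opposite direction. It encodes a transporter of intracellular membranes that matters in connective tissue. The gene (ENSRNOG00000011981, chromosome 3 from 77037565 to 77049226) had 101.7, 62.8 and 96.7 CPM in planar and 33.1, 33.4 and 30.2 CPM in TE-RMS astrocytes. The TE-RMS libraries hardly differed from each other, and the planar libraries were spread more widely, with September lowest. The log2 fold change was -1.40 ± 0.20 (SE), and the ratio within September was the smallest, at -0.91.

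The zinc exporters also split, with 2 of 3 higher and 1 lower. Slc30a1 (ENSRNOG00000004749, chromosome 13 from 103491037 to 103494910), the main exporter of the plasma membrane, had 29.2, 29.5 and 48.5 CPM in planar and 5.17, 8.43 and 12.4 CPM in TE-RMS astrocytes. Its planar libraries were all above its TE-RMS libraries, and October was highest in either condition. The planar mean was 35.7 ± 11.02 CPM and the TE-RMS mean 8.65 ± 3.61 CPM (SD, n = 3), 4.26-fold lower (log2 fold change -2.09 ± 0.24, SE). Slc30a9, which is linked to zinc export from mitochondria, had 51.0, 87.0 and 70.2 CPM in planar and 158.5, 194.4 and 144.5 CPM in TE-RMS astrocytes (log2 fold change 1.28 ± 0.18, SE). Slc30a5, which loads zinc into the secretory pathway, had 30.5, 33.8 and 29.0 CPM in planar and 64.1, 72.2 and 65.9 CPM in TE-RMS astrocytes. It was the member with the steadiest ratio, with log2 ratios of 1.07, 1.10 and 1.18 in the 3 runs. The exporter that was lower is the one of the plasma membrane, and those that were higher serve organelles.

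The ratio of Slc39a10 to Slc30a1 CPM within a library was chosen after the values were seen, and only its difference between libraries can be read, since the transcripts differ in length. It was 1.55, 1.20 and 0.754 in planar and 24.2, 29.9 and 12.4 in TE-RMS libraries. Mt1, a metallothionein that binds zinc and copper in the cytosol, was lower in TE-RMS astrocytes as Slc30a1 was. It had 61.7, 152 and 142.7 CPM in planar and 20.8, 33.7 and 45.5 CPM in TE-RMS astrocytes (log2 fold change -1.80 ± 0.18, SE). Its near copy Mt1-ps3 had a log2 fold change of -1.95 ± 0.21 (SE), and reads may be shared between these genes.

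**Figure D2:**
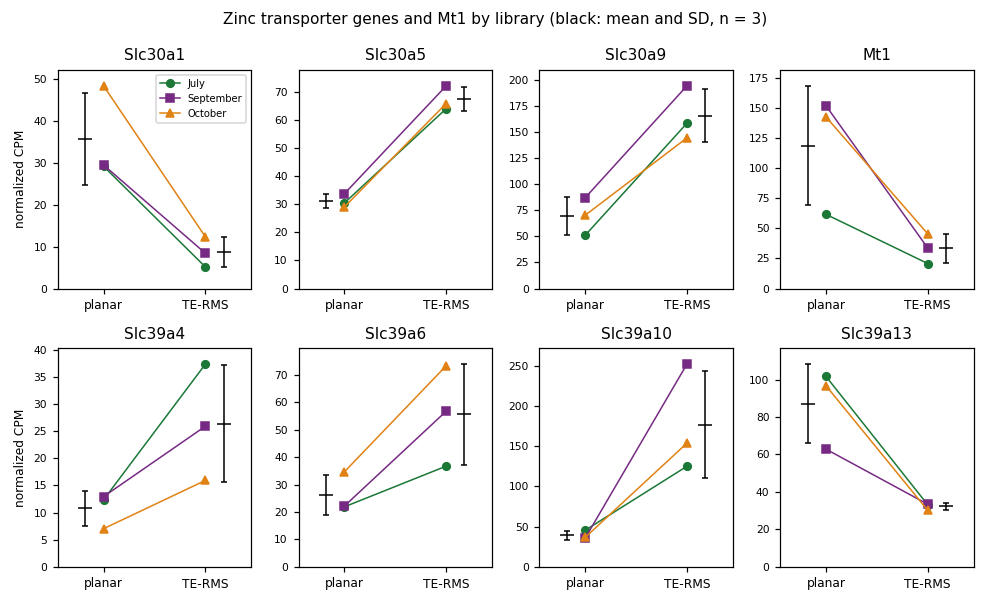
Normalized CPM (linear axes from 0) of the 7 zinc transporter genes and Mt1 in planar and TE-RMS libraries; lines join the libraries of 1 run and black bars give the mean and SD of 3 libraries. Slc30a1, Slc39a13 and Mt1 slope down in each run and the other 5 genes slope up. In CPM, the steepest rise is that of Slc39a10 in September (to 252.2 CPM) and October, and that of Slc30a9 in July.

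Metallothionein genes and Slc30a1 are textbook targets of MTF-1, a zinc sensing transcription factor that binds metal response elements. The core of that element was searched as TGCACNC or TGCGCNC on both strands in the 250 bases before the start site of each gene in the RefSeq promoter table (build GRCr8), where N is any base. Of the 28 members 24 were in the table, and Slc39a4, Slc25a46, Slc35e4 and Slco1c1 were not. Mt1 had 6 matches, Slc30a1 had 2 at positions -91 and -18 from the start site, and Slc39a13 had 2 at -84 and -18. Slc30a5, which was higher in TE-RMS astrocytes (log2 fold change 1.12), had 2 overlapping matches that are not printed below. Slc30a9, Slc39a6 and Slc39a10 had none in this window. At least 1 match was found in 20.6% of all 33469 promoters and in 9 of the 24 members (37.5%). The first share counts every promoter, whether or not its gene was detected here, and the second counts 1 promoter per member. Base composition was not matched, so the shares are not like for like, and enrichment was not tested. The stretches below show where these letters stand in Mt1, Slc30a1 and Slc39a13, which were lower in TE-RMS astrocytes, with the matches on either strand in capitals, each read 5′ to 3′ on the strand of the gene. They lie at chr19:10833021-10833155 (Mt1, minus strand), chr13:106021919-106022010 (Slc30a1, plus strand) and chr3:97503053-97503139 (Slc39a13, minus strand) of GRCr8.
Mt1: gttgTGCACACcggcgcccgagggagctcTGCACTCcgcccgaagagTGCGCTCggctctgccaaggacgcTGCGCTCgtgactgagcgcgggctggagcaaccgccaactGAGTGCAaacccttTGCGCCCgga
Slc30a1: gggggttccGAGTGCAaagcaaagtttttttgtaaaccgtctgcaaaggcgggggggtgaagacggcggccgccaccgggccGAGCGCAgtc
Slc39a13: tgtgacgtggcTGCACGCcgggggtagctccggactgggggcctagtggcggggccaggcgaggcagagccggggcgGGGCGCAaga
A match describes the letters of the promoter and is not a measured binding site. Matches were also found in members outside zinc transport, among them Slc7a5, Slc7a8, Slc2a1, Slc4a2 and Slc12a4, which differed in direction.

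Other short elements were searched in the same windows, and their shares have the same limit and are not like for like. The hypoxia response element core (ACGTG or GCGTG) was in 16 of the 24 members (66.7%) and in 36.7% of all promoters. Slc30a5 and Slc25a1 held the most, with 6 matches each. Of the members of glucose and lactate transport, Slc2a1 held 4 matches and Slc16a3 held 0. The antioxidant response element TGACNNNGC was in 7 members (29.2%) and 10.1% of all promoters, and the amino acid response element TGATGNAA was in none of the 24 members and 3.40% of all promoters.

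Of the 5 amino acid and taurine transporters, 2 were higher and 3 lower in TE-RMS astrocytes. The exchangers Slc7a5 (LAT1) and Slc7a8 (LAT2), which both carry large neutral amino acids, went in opposite directions. Slc7a5 (ENSRNOG00000018824, chromosome 19 from 49935220 to 49963823) had 42.1, 23.2 and 85.4 CPM in planar and 24.7, 6.35 and 39.7 CPM in TE-RMS astrocytes. The October TE-RMS library was above the September planar library, so the conditions overlapped, but within each run the TE-RMS library was lower (log2 fold change -1.24 ± 0.23, SE). Slc7a8 (ENSRNOG00000014311, chromosome 15 from 28183015 to 28242717) had 42.0, 32.2 and 14.8 CPM in planar and 149.8, 63.3 and 63.6 CPM in TE-RMS astrocytes. Its conditions did not overlap, and July was highest in either condition (log2 fold change 1.64 ± 0.22, SE). The ratio of Slc7a5 to Slc7a8 CPM, also formed after the values were seen, was 1.00, 0.720 and 5.76 in planar and 0.165, 0.100 and 0.623 in TE-RMS libraries. It was lower in the TE-RMS library of each run, and it varied more than 5-fold among libraries of either condition.

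Slc43a2 (LAT4), a uniporter for branched-chain amino acids and phenylalanine, had 13.2, 12.5 and 17.4 CPM in planar and 6.49, 2.45 and 5.07 CPM in TE-RMS astrocytes (log2 fold change -1.72 ± 0.34, SE). Slc38a2 (SNAT2), which takes up small neutral amino acids with sodium, had 22.4, 25.6 and 20.7 CPM in planar and 61.7, 56.9 and 59.8 CPM in TE-RMS astrocytes. The libraries of Slc38a2 lay close together within each condition, and the log2 fold change was 1.38 ± 0.18 (SE). Slc6a6, the taurine transporter, had 31.8, 96.3 and 173.4 CPM in planar and 17.3, 48.3 and 44.6 CPM in TE-RMS astrocytes. The July planar library was lower than the September and October TE-RMS libraries, and within each run the TE-RMS library was the lower one (log2 fold change -1.28 ± 0.22, SE).

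The glucose transporter was higher and the monocarboxylate transporter lower in TE-RMS astrocytes. Slc2a1 (GLUT1, ENSRNOG00000007284, chromosome 5 from 132717196 to 132745416), the main glucose transporter of astrocytes and brain endothelium, had 83.5, 44.7 and 44.0 CPM in planar and 179.4, 86.5 and 62.0 CPM in TE-RMS astrocytes. The July planar library lay between the TE-RMS libraries, and the log2 fold change was 0.85 ± 0.18 (SE). Slc16a3 (MCT4, ENSRNOG00000036677, chromosome 10 from 106212778 to 106222562), which exports lactate, had 26.3, 29.3 and 11.8 CPM in planar and 8.36, 7.88 and 3.06 CPM in TE-RMS astrocytes. It was 3.56-fold lower (log2 fold change -1.83 ± 0.26, SE), with log2 ratios of -1.65, -1.89 and -1.94 in the 3 runs. The ratio of Slc16a3 to Slc2a1 CPM, formed after the values were seen from genes that differed in opposite directions, was 0.314, 0.656 and 0.269 in planar and 0.0466, 0.0911 and 0.0493 in TE-RMS libraries. Bsg (basigin), which brings MCT4 to the cell surface, had 1115, 996 and 1320 CPM in planar and 485, 526 and 683 CPM in TE-RMS astrocytes. The log2 fold change of Bsg was -1.02 ± 0.17 (SE), in the direction of Slc16a3. Emb (embigin), a related chaperone of monocarboxylate transporters, was higher in the TE-RMS library of each run, with a log2 fold change of 0.87 ± 0.18 (SE).

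**Figure D3:**
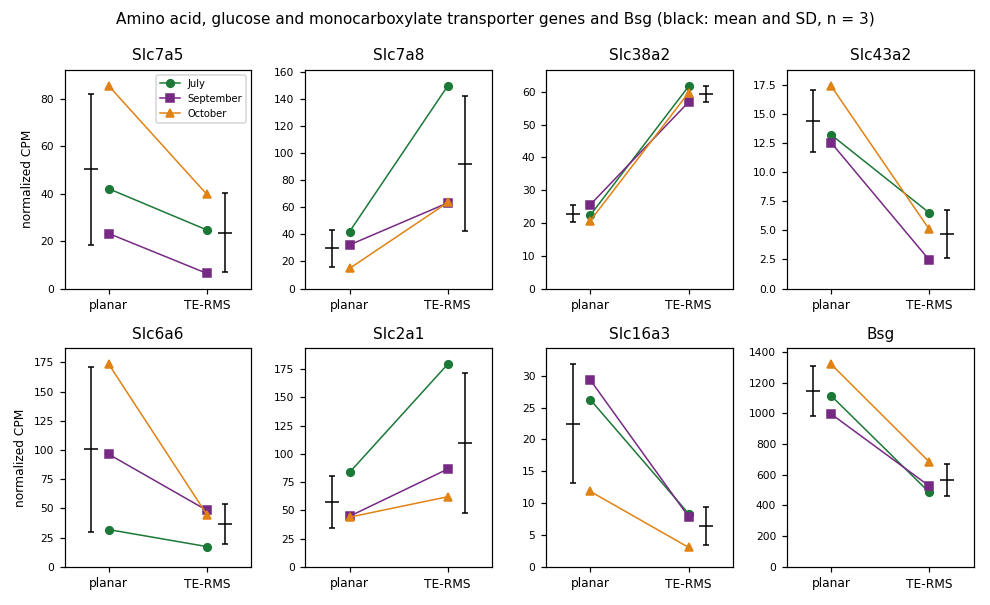
Normalized CPM (linear axes from 0) of the 5 amino acid and taurine transporter genes, Slc2a1, Slc16a3 and Bsg; lines join libraries of 1 run and black bars give the mean and SD of 3 libraries. Slc7a8, Slc38a2 and Slc2a1 slope up in each run and the others down, while the lines of Slc7a5 and Slc6a6 are far apart between runs.

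Of the 5 mitochondrial carriers, 4 were higher and 1 lower. Slc25a18 (ENSRNOG00000042731, chromosome 4 from 154000990 to 154021372), a mitochondrial glutamate carrier that is enriched in astrocytes, had 3.52, 0.788 and 5.77 CPM in planar and 13.2, 4.87 and 33.3 CPM in TE-RMS astrocytes. The September TE-RMS library was below the October planar library, but each run had the higher value in its TE-RMS library, and the log2 ratios were 1.89, 2.58 and 2.52 (log2 fold change 2.35 ± 0.32, SE). Slc25a46, a protein of the outer mitochondrial membrane that acts in the shaping of the organelle, had 34.5, 35.7 and 27.2 CPM in planar and 94.1, 96.2 and 80.6 CPM in TE-RMS astrocytes. Its ratio hardly varied between runs, from 1.43 to 1.57 on the log2 scale. Slc25a5, an ADP/ATP carrier, had 171.3, 160.6 and 131.5 CPM in planar and 317.4, 254.5 and 442.5 CPM in TE-RMS astrocytes, and October had both the lowest planar and the highest TE-RMS value. Its log2 fold change was 1.10 ± 0.21 (SE), and 0.81 without the October run. Slc25a33, a pyrimidine nucleotide carrier, had 3.12, 6.65 and 6.70 CPM in planar and 10.5, 12.3 and 23.8 CPM in TE-RMS astrocytes (log2 fold change 1.49 ± 0.32, SE). The table that names it lists this locus as a pseudogene, and reads may be shared with similar copies, which was not tested. Slc25a1, the citrate carrier that feeds lipid synthesis in the cytosol, was the lower one, with 63.2, 47.7 and 61.4 CPM in planar and 23.6, 28.8 and 28.3 CPM in TE-RMS astrocytes (log2 fold change -1.09 ± 0.19, SE).

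All 3 transporters of inorganic ions were lower in TE-RMS astrocytes, and none of their libraries overlapped between conditions. Slc4a2 and Slc4a3, which exchange chloride for bicarbonate and so act on cell pH, had 22.8, 14.7 and 24.4 CPM and 5.07, 6.63 and 9.18 CPM in planar libraries. In TE-RMS libraries they had 11.98, 4.55 and 6.47 CPM and 2.05, 1.18 and 1.51 CPM. Slc4a3 was 4.40-fold lower, the largest difference among the members that were lower in the fit of all runs. It had the largest standard error of all members (log2 fold change -2.14, standard error 0.51). Slc30a1 was close to it, at -2.09. Slc4a3 and Slc30a1 were at -1.95 and -2.23 without September and at -1.86 and -2.12 without October, so their order turned. Without July they were at -2.54 and -1.89. Slc12a4 (KCC1), a potassium chloride cotransporter used in volume regulation, had 27.0, 32.2 and 37.9 CPM in planar and 14.2, 7.62 and 14.0 CPM in TE-RMS astrocytes. For all 3 genes the ratio within July was the smallest, at -0.93, -1.30 and -0.92 on the log2 scale for Slc4a2, Slc4a3 and Slc12a4.

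In the SLC35 family, whose members bring nucleotide sugars into the Golgi and endoplasmic reticulum for glycosylation, 2 were higher and 1 lower. Slc35a1, the CMP-sialic acid transporter, had 53.5, 79.5 and 61.4 CPM in planar and 94.8, 136.2 and 115.8 CPM in TE-RMS astrocytes (log2 fold change 0.84 ± 0.16, SE). Slc35a5 had 25.0, 29.1 and 31.9 CPM in planar and 48.8, 55.7 and 72.5 CPM in TE-RMS astrocytes (log2 fold change 1.03 ± 0.18, SE). Slc35e4, an orphan of the family, had 27.6, 33.7 and 31.3 CPM in planar and 11.6, 9.46 and 16.2 CPM in TE-RMS astrocytes (log2 fold change -1.34 ± 0.24, SE). No library overlapped between conditions for any of these genes.

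Slco1c1 (ENSRNOG00000009740, chromosome 4 from 174466631 to 174513289) had the largest fold change of all 28 members. It encodes OATP1C1, which carries thyroxine into the brain and is found in astrocytes and brain capillaries. It had 107, 72 and 117 counts in planar and 855, 580 and 836 counts in TE-RMS libraries, which is 1.58, 0.995 and 1.94 CPM against 15.1, 8.06 and 13.2 CPM. September was lowest in either condition, and the TE-RMS libraries were all above the planar ones. The difference was 8.06-fold (log2 fold change 3.01 ± 0.38, SE). Slc14a1 (UT-B), a urea transporter found in astrocytes, had 103.9, 112.8 and 61.5 CPM in planar and 258.4, 217 and 142.7 CPM in TE-RMS astrocytes (log2 fold change 1.16 ± 0.16, SE). Slc22a17, a receptor for the iron-binding protein lipocalin-2, was lower, with 79.7, 73.5 and 120.5 CPM in planar and 51.8, 30.5 and 47.8 CPM in TE-RMS astrocytes (log2 fold change -1.08 ± 0.19, SE).

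**Figure D4:**
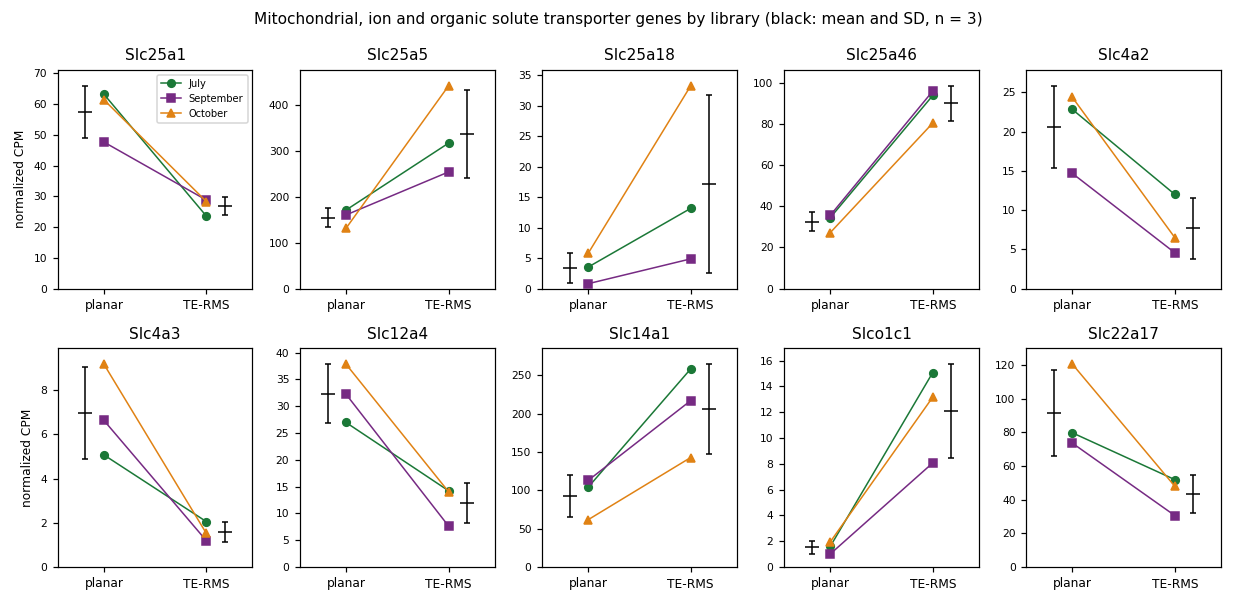
Normalized CPM (linear axes from 0) of 4 mitochondrial carriers, the 3 ion transporters and the 3 transporters of organic solutes; lines join libraries of 1 run and black bars give the mean and SD of 3 libraries. Slc25a18 fans out between runs, from 4.87 to 33.3 CPM in TE-RMS astrocytes, while Slc25a46 keeps nearly the same slope in each run.

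Solute carriers work with pumps that set up the gradients they use and with subunits that bring them to the membrane. A list of such genes (ATPases by name, ABC transporters, aquaporins, metallothioneins and known subunits) had 17 genes with a paired name, selected on the same small p-values. Of these 10 were higher and 7 lower in TE-RMS astrocytes, with a median log2 fold change of 0.84. Of the subunits of the sodium pump, which drives sodium-coupled carriers, only the beta subunits Atp1b1 and Atp1b2 had a paired name. Both were higher, by log2 fold changes of 1.25 for Atp1b1 (standard error 0.22) and 1.88 for Atp1b2 (standard error 0.30). The conditions overlapped for Atp1b1, with 194.7 CPM in planar September and 175.9 CPM in TE-RMS July. Atp1b2, the form typical of astrocytes, had 56.2, 51.8 and 70.3 CPM in planar and 480.1, 124.3 and 177.5 CPM in TE-RMS astrocytes, so that July stood apart in the TE-RMS group. Atp2b1, a calcium pump of the plasma membrane, was lower (log2 fold change -0.97 ± 0.17, SE), and Atp2c1, a calcium and manganese pump of the Golgi, was higher (1.10, standard error 0.17). Atp6v0d1 and Atp6ap2 of the vacuolar proton pump were higher by 0.84 (standard error 0.16) and 0.86 (standard error 0.17), and Atp5f1a of the mitochondrial ATP synthase by 0.82 (standard error 0.16). Of the P-type ATPases that flip lipids or act in lysosomes, Atp8b2, Atp9a and Atp13a2 had log2 fold changes of -1.99, -2.32 and -2.12. Abce1, an ABC protein of ribosome recycling that is not a transporter, had a log2 fold change of 2.39.

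Differences between runs were not used to choose the members, and they were tested jointly for the run terms of the edgeR model with the condition in it. Of the 28 members 5 had run terms past an adjusted p of 0.05 (17.9%), against 3.21% of all 16331 tested genes and 11.8% of the 1517 genes from which the members come. Selection on small p-values favours genes with little residual spread, which the test of the runs uses too, so the shares of members and of all genes are not like for like. The 5 genes were Slc7a5 (adjusted p = 0.00313 in that edgeR test), Slc6a6 (0.00468), Slc25a18 (0.00496), Slc2a1 (0.0113) and Slc7a8 (0.0309). They include all 4 members whose conditions overlapped. The run means of log2 CPM over both conditions of Slc25a18 were 2.77, 1.00 and 3.80, a range of 2.80, which is a 6.95-fold difference between October and September. For Slc7a5 they were 5.01, 3.61 and 5.86, a 4.78-fold range with the same order of runs. Slc6a6 differed 3.74-fold between July and October, with means of 4.55, 6.09 and 6.46. Slc2a1 and Slc7a8 were highest in July and lowest in October, by 2.34-fold and 2.58-fold.

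In 4 of these genes the range between runs was larger than the difference between TE-RMS and planar astrocytes, the exception being Slc7a8. Over all 28 members the median range of the run means was 0.72 on the log2 scale. It was 0.74 over all tested genes and 0.61 over the 1517 genes from which the members come. The zinc, ion, SLC35 and organic solute transporters held no member past the threshold. Among the zinc genes Slc39a4 had the widest range, at 1.02 on the log2 scale (adjusted p = 0.160 from edgeR's test). Dates and preparations changed together between runs and cannot be told apart.

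**Figure D5:**
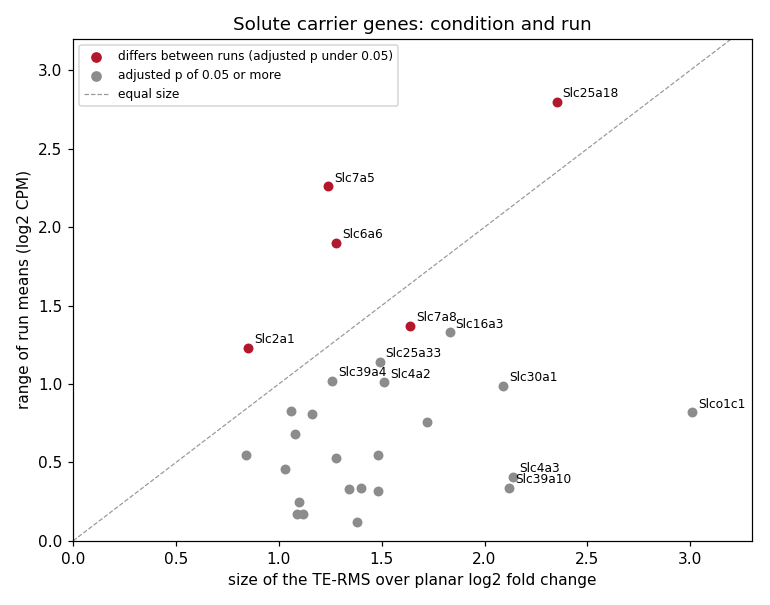
Size of the TE-RMS over planar log2 fold change (x axis) and range of the 3 run means of log2 CPM (y axis) for the 28 solute carrier genes; each point is a gene, red where the run terms passed an adjusted p of 0.05, and the dashed line marks equal size. Slc25a18, Slc7a5, Slc6a6 and Slc2a1 lie above the line, and Slco1c1 lies farthest to the right at 3.01.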

How the data were processed

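Libraries from a non-stranded kit were trimmed (fastp) and quantified (Salmon, mRatBN7.2 transcripts of Ensembl) by the authors, who used tximeta for gene sums. The deposited table gives these estimated counts in whole numbers without normalization, 1 column per library. A minimum of 10 counts over the 6 libraries left 16331 of 23940 genes, which entered edgeR 4.0.16 (R 4.3.3) with TMM scaling, the quasi-likelihood test and Benjamini-Hochberg adjustment over all of them. The run was a block, since the study pairs libraries of 1 run. Deviations from the condition mean of same-run libraries correlated at 0.18 to 0.27, and those of different runs at -0.16 to -0.07. The prior count was 0.125 for log2 fold changes and 2 for ratios within runs. Standard errors are the log2 fold change over the square root of F. Alternatives were DESeq2 1.42.0 on all genes, limma 3.58.1 (voom), other scalings and filters, no block and each run left out. The tests were tested on simulated data.

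Gene names and coordinates came from the study's table, whose own statistics (means, fold changes, p-values) were not used, other than that its order had chosen the genes read. Of the members all 28 passed the count filter and are named. The members, substrate classes, marker lists, partner list and motifs were chosen with earlier results of these data known. The study repeated the preparation 3 times. Promoter sequences are from RefSeq (GRCr8). Some genes of the marker and partner lists are not reported here by name.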

Additional observations from a re-analysis of the deposited data

How the results depend on the processing

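Under 10 alternatives for each of the 28 members (280 values), no log2 fold change reversed, and 16 members were higher in TE-RMS astrocytes under every alternative. In 273 values the member stayed on its side of an adjusted p of 0.05. Without the replicate block, 22 of the 28 members passed, and Slc39a4, Slc7a5, Slc6a6, Slc2a1, Slc25a18 and Slc25a33 did not, with adjusted p-values from 0.0529 to 0.296. Over all genes that unpaired fit called 1441 in place of 3044. With a run left out, 27 to 28 members passed, Slc4a3 being lost without September (adjusted p = 0.0683 from edgeR's test). Over all genes 2081 to 3210 were then called, and 16 to 16 members were higher. The number of genes that differed between runs was 525 by edgeR, 1281 by DESeq2 and 224 with at least 10 counts in at least 3 libraries, and the number of members among them was 5, 7 and 4. The lowest count of any member was 57, and the effect of sequencing depth on the members was not tested.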

Other observations

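1 gene outside the 28 carries a solute carrier name only in the figure label column of the study's table. It is labelled Slc35a3, a UDP-N-acetylglucosamine transporter, but named Hiat1-ps1 (ENSRNOG00000015502). Its levels were 79.6, 96.3 and 77.9 CPM in planar and 134.7, 167.3 and 143.5 CPM in TE-RMS astrocytes (July, September, October), with no overlap and a log2 fold change of 0.81 ± 0.16 (SE), near that of Slc35a1. It was selected on the same contrast, so this is a description, with no test.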
